A study of Danio rerio with 18 samples.

Results

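Selenocysteine tRNA, written tRNA-SeC-UCA-1 in the study's reference, was measured in zebrafish from the unfertilised egg to the bud stage. It was chosen by name as every nuclear entry of the abundance table for selenocysteine, and it was 1 of 2578 nuclear entries. No unresolved group of transcripts held the same anticodon, so the transcript and its anticodon family, SeC-UCA, were the same counts. In the reference used by the authors it had 3 gene copies, the lowest copy number among the 46 families for which a number could be read.

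Selenocysteine tRNA places the amino acid selenocysteine at UGA codons that would otherwise end translation, in mRNAs that carry a selenocysteine insertion element. It is first loaded with serine by seryl-tRNA synthetase, and the serine is then converted to selenocysteine on the tRNA. The resulting selenoproteins include glutathione peroxidases, thioredoxin reductases and iodothyronine deiodinases. Like the serine and leucine tRNAs it has a long variable arm, and these families are set beside it here. Vertebrate selenocysteine tRNA is transcribed by RNA polymerase III, in part from promoter elements that lie outside the transcribed sequence. The serine and leucine tRNA genes use internal elements.

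Wild-type embryos of the TLAB strain, a cross of the Tupfel Longfin and AB lines, were profiled untreated and whole by mim-tRNAseq, which reads full-length tRNA through its modified bases. The groups were unfertilised eggs at 0 h, 256-cell embryos at 2.5 h, 1000-cell embryos at 3 h, sphere at 4 h, shield at 6 h and bud at 10 h after fertilisation, with 2 libraries each. The first stages are before or at the onset of transcription from the embryo's own genome, and shield and bud lie in gastrulation. Each library was a pool of whole eggs or embryos, so p-values measure the spread between pools. Nuclear counts ranged from 791432 to 8525792 per library, and the share of all tRNA counts that was mitochondrial was 17.3% in eggs and 8.33% at bud, as means of 2. The abundances are shares of the tRNA sequenced, with no value per embryo, and more cells holding a tRNA cannot be told apart from more tRNA per cell.

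Selenocysteine tRNA was present in every library and was the rarest of the 47 nuclear anticodon families at every stage. Raw counts were 74 and 160 in eggs, 950 and 247 at 256-cell, and 132 and 248 at 1000-cell, in replicates 1 and 2. They were 193 and 247 at sphere, 780 and 726 at shield, and 1358 and 1639 at bud. These counts follow library depth as well as abundance. For this reason the share of nuclear counts is used from here on, in counts per 1000000 nuclear counts (CPM), and a count of 0 would have allowed at most 3.79 CPM in the shallowest library.

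Eggs held 93.5 and 79.0 CPM of selenocysteine tRNA. The 256-cell libraries held 111 and 117, and the 1000-cell libraries held 88.6 and 104. Before gastrulation the values thus lay in 1 low band, with the sphere libraries at its ends. Sphere replicate 1 held 75.4, with a Wilson interval at a confidence level of 95% from 65.5 to 86.8, and sphere replicate 2 held 134, with an interval from 118 to 151. The sphere libraries differed by 1.77-fold, with no overlap of their intervals, while the other pairs differed by 1.05-fold to 1.18-fold. Shield libraries held 154 and 147 CPM, just above all 8 earlier libraries. Their intervals, 143 to 165 and 136 to 158, both overlapped that of sphere replicate 2. Bud libraries held 433 and 385, with intervals of 411 to 457 and 367 to 404, well above every other library. Put as a frequency, 1 nuclear count in 10695 and in 12663 was selenocysteine tRNA in the egg libraries, against 1 in 2308 and in 2597 at bud.

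**Figure D1:**
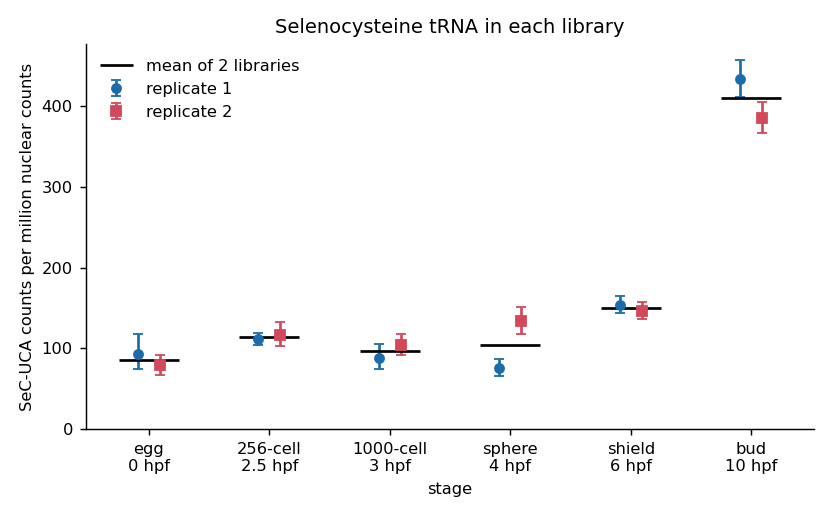
Selenocysteine tRNA by stage, in CPM of nuclear tRNA counts on a linear axis that starts at 0. Points are the 12 libraries, 2 per stage, with Wilson intervals at 95% that cover counting error only, and the marks are stage means. Both bud libraries, 433 and 385 CPM, lie above every other library, and the sphere libraries lie apart at 75.4 and 134.

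Selenocysteine tRNA rose about 5-fold between the egg and the bud stage. The mean share was 86.2 ± 10.3 CPM in eggs and 409 ± 34.1 at bud (SD, n = 2), and the fitted change was 2.33 ± 0.39 on the log2 scale (SE, DESeq2, Benjamini-Hochberg adjusted p = 8.0e-08). This is 5.02-fold, with an interval at 95% from 2.94 to 8.58. It was the largest rise of the 47 families, of which 21.3% were called higher and 36.2% were called in either direction at an adjusted p of at most 0.05. Families can pool many transcripts while SeC-UCA is 1, and among the 607 detected single transcripts its rise ranked 25. The median change over all families was 0.07. The 2 next in rank were serine families, Ser-UGA at 1.11 ± 0.25 and Ser-CGA at 1.07 ± 0.16 (SE, DESeq2 adjusted p = 9.56e-05 and 3.83e-09). The numbers of families called higher and lower were 10 and 7, and they became 8 and 9 with TMM factors, 8 and 8 with total nuclear counts and 13 and 3 with all tRNA counts as the scale. The call for selenocysteine tRNA held under each of these scalings.

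**Figure D2:**
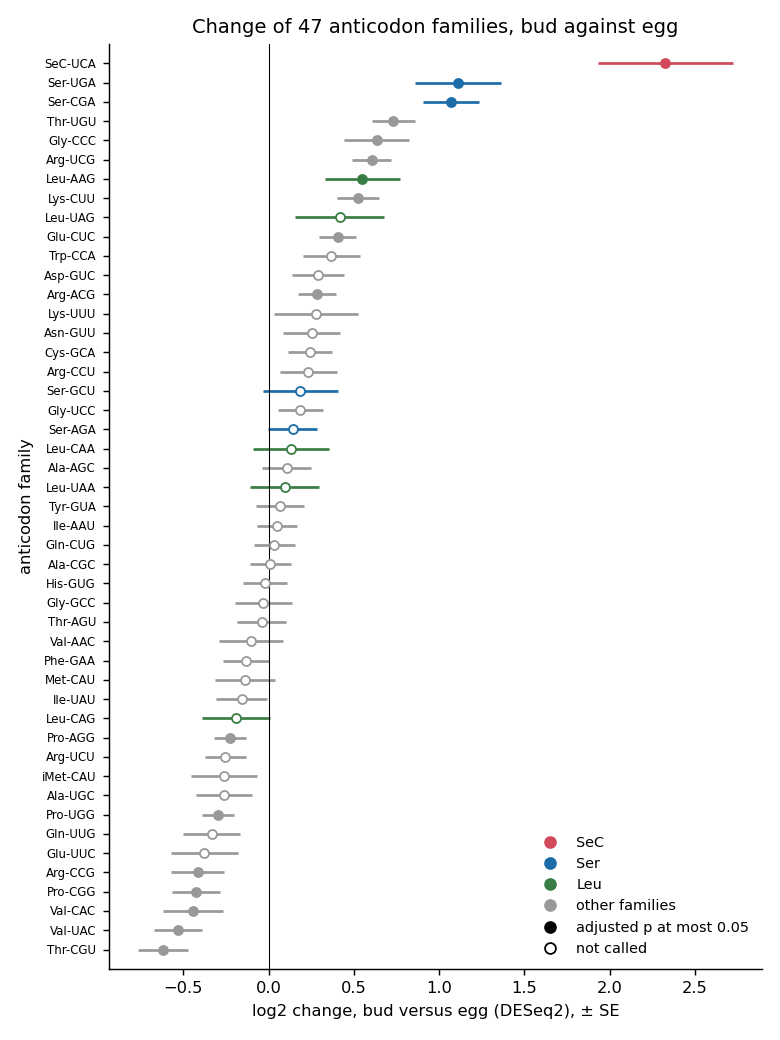
Log2 change at bud against egg for the 47 nuclear anticodon families from the DESeq2 fit, in order of size, with bars of 1 SE on each side and filled points where the adjusted p was at most 0.05. SeC-UCA at 2.33 lies apart from the next families, Ser-UGA at 1.11 and Ser-CGA at 1.07.

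The last interval, shield to bud, held most of this rise. Bud was higher than shield by 1.51 ± 0.38 in log2 units (SE, n = 2 per stage, DESeq2 adjusted p = 0.000747), which is 2.86-fold with an interval at 95% from 1.70 to 4.80. That was 65.0% of the log2 rise from egg to bud. It was again the largest rise of the 47 families, where 10.6% were called and all 5 calls were higher. Leaving out shield replicate 1 or 2 left the change at 1.53 or 1.48 but ended the family call, with the single remaining shield library assumed to vary like the others. In the single-transcript fit below the change was then 1.87 or 1.90, beside 1.88 with all libraries. Within the bud and shield libraries alone the family change was 1.49 ± 0.09 and called (SE, DESeq2).

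Bud also exceeded the 3 remaining stages. Against sphere the change was 2.05 ± 0.39, or 4.14-fold (SE, DESeq2 adjusted p = 2.21e-06, with 29.8% of families called and 19.1% called higher). Against 256-cell it was 1.89 (DESeq2 adjusted p = 7.86e-06, 27.7% called and 19.1% called higher), and against 1000-cell it was 2.15 (DESeq2 adjusted p = 3.58e-07, 25.5% called and 19.1% called higher). In all 5 comparisons with bud, selenocysteine tRNA ranked first by size of rise among 47 families. These comparisons share the same bud libraries. Both bud libraries exceeded all 10 others in 6 of 47 families, or 12.8%: SeC-UCA, Ser-CGA, Arg-UCG, Thr-UGU, Arg-ACG and Lys-CUU.

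At shield, the start of gastrulation, the mean share was 150.2 ± 5.18 CPM (SD, n = 2), 1.74-fold that of the egg. The fitted change of 0.81 ± 0.40 did not pass the threshold (SE, DESeq2 adjusted p = 0.117, with 17% of families called), although its interval at 95% ran from 0.04 to 1.59. All stages share 1 estimate of the spread in this fit, and the SE fell from 0.40 to 0.13 when either sphere library was left out. Without sphere replicate 1 or 2 the shield change was 0.85 each and passed the threshold, with 1 sphere library left. Within the egg and shield libraries alone, a fit without any sphere library, it was 0.80 ± 0.46 and not called (SE, DESeq2 adjusted p = 0.210). By edgeR its adjusted p was 0.0724, and 19 of 22 alternatives stayed uncalled. Against sphere, shield differed by 0.54 ± 0.39 (SE, DESeq2 adjusted p = 0.488, 2.13% called). Without sphere replicate 1 or 2 that change was 0.17 or 1.04.

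None of the comparisons among the 4 earliest stages passed the threshold. Against the egg, 256-cell differed by 0.43 ± 0.40, 1000-cell by 0.18 ± 0.40 and sphere by 0.28 ± 0.40 (log2 with SE, adjusted p = 0.624, 0.856 and 0.740 by DESeq2). Families called in these comparisons made up 2.13%, 0% and 4.26%. Their intervals at 95% reached from -0.34 to 1.21, from -0.61 to 0.96 and from -0.51 to 1.06, and so included changes of about 2-fold. The sphere value was decided by 1 library, at -0.19 without sphere replicate 2 and at 0.68 without sphere replicate 1. Without sphere replicate 1 or 2 the 256-cell change was 0.45 each and was called, with 1 sphere library left. Within the 256-cell and egg libraries alone it was 0.42 ± 0.83 and not called (SE, DESeq2 adjusted p = 0.832). In 20 of 22 alternatives it stayed uncalled. From lowest to highest mean share the order was egg, 1000-cell, sphere, 256-cell, shield and bud. Of the 15 pairs of stages, the 5 with bud passed the threshold and the other 10 did not (shield against 256-cell and 1000-cell had 8.51% and 4.26% of families called), so only bud was set off from its neighbour in this order.

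Shield and bud were also set against the 4 earlier stages together. Both had higher shares than all 8 earlier libraries, 2.51-fold on average, and a two-sided exact permutation test over the 495 labellings of the 12 libraries gave p = 0.00404, the smallest it can give (0.00808 adjusted over 2 tests by Benjamini-Hochberg). The test took libraries of the same stage as independent, so its p-value does not measure the spread between stages. Groups without overlap in this direction were seen in 3 families of 47, or 6.38%: SeC-UCA, Ser-CGA and Glu-CUC. Without bud, the 2 shield libraries still lay above the 8 earlier ones. Their Wilson intervals both overlapped that of sphere replicate 2, so this separation was narrow.

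The gap between selenocysteine tRNA and the other families narrowed with the rise. The next rarest family, Ser-CGA in all stages but bud, held 15.2-fold more counts than selenocysteine tRNA in eggs and 10.8-fold more at shield. At bud the next rarest was Leu-CAA, with 5.18-fold more. The median family held 235-fold more counts in eggs and 43.8-fold more at bud. These folds compare read counts per tRNA that were not divided by length.

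Dividing by gene copies placed selenocysteine tRNA elsewhere. With 3 copies, against 5 for the next lowest family, Ala-AGC, it gave 28.7 CPM per copy in eggs and 136 at bud, as means of 2 libraries. In eggs this ranked 42 of 46 families from the highest, at 0.203 of the median family. At shield it gave 50.1 per copy and ranked 37, and at bud it ranked 22 of 46 and was 1.14 times the median. With 3 copies it thus moved per copy from among the lowest families to the middle. Among the serine families, Ser-CGA had 27.4 CPM per copy in eggs and 54.6 at bud, Ser-UGA 16.1 and 32.9, Ser-AGA 64.3 and 67.2, and Ser-GCU 28.9 and 31.3. These ranks rest on the copy number in the authors' table. The paper found no significant correlation between copy number and family level at any stage. It concludes that most predicted tRNA genes are silent or add little to the mature pool at these stages. A value per copy is thus not a value per active gene. The RefSeq annotation of another assembly, GRCz12tu, lists 1 gene of this anticodon, between mrpl28, which encodes a mitochondrial ribosomal protein, and cul5a, which encodes a cullin. With 1 copy the egg and bud values per copy would be 86.2 and 409 CPM, beside medians of 141 and 120 over the 46 families. These medians keep the authors' copy numbers for every family, so the comparison mixes assemblies. With only the number for selenocysteine tRNA changed, its ranks would be higher at both stages.

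**Figure D3:**
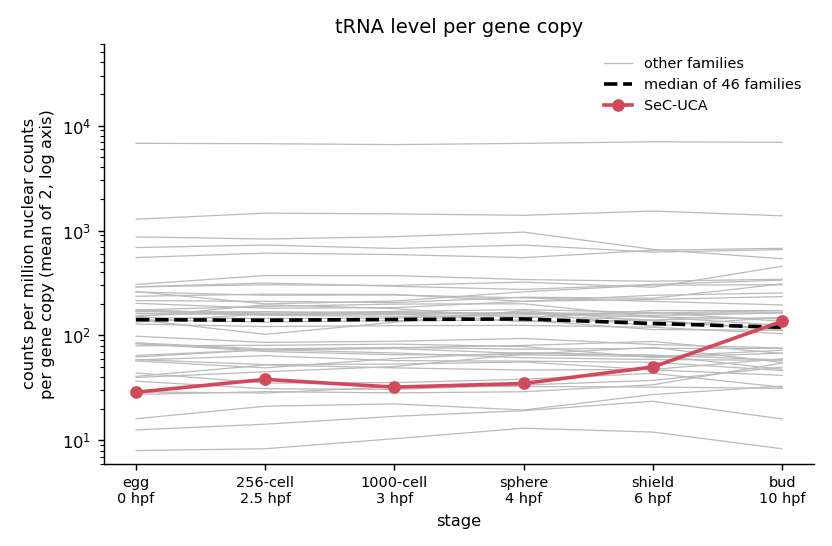
CPM of nuclear counts divided by the gene copy number in the authors' table, as means of 2 libraries, on a log axis across the 6 stages. Each line is 1 of the 46 families with a copy number, and SeC-UCA climbs from 28.7 in eggs to 136 at bud, from rank 42 to rank 22.

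The selenocysteine tRNA gene is also among the longer tRNA genes. The GRCz12tu gene spans 87 bases in the RefSeq annotation, against medians of 82 for 773 serine, 83 for 871 leucine and 73 for 6785 other nuclear tRNA genes. In that annotation 558 of 8430 tRNA genes were at least as long. These are lengths of annotated genes. Mature tRNAs lack introns and carry a CCA end added after transcription, so their lengths differ. The authors selected RNA by size before making the libraries, and any effect of length on recovery was not tested.

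The sums of the serine and leucine tRNAs, which share the long variable arm, did not rise to the same extent. These sums pool many transcripts, whereas selenocysteine tRNA is 1. In the single-transcript fit below, 3 of 49 detected serine and 3 of 55 leucine transcripts rose more at bud against egg, beside 24 of all 607. As sums over anticodons, serine tRNAs made up 3.81% of nuclear counts in eggs, 4.97% at shield and 4.44% at bud, as means of 2 libraries. Leucine tRNAs made up 3.56%, 5.10% and 3.73% at the same stages. Both means were highest at shield and lower at bud, but the libraries overlapped for serine. Its sum was 5.55% and 4.40% in the shield libraries, 4.68% in bud replicate 1 and 5.09% in 1000-cell replicate 1, so the serine order rested on shield replicate 1. For leucine, the shield libraries at 5.45% and 4.75% lay above the bud libraries at 3.63% and 3.82%, and sphere replicate 2 was as high at 5.48%.

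Counts of selenocysteine tRNA per 1000 serine and leucine tRNA counts were 1.19 and 1.14 in eggs, 1.30 and 1.69 at 256-cell, and 0.931 and 1.34 at 1000-cell. They were 0.835 and 1.33 at sphere, 1.40 and 1.60 at shield, and 5.22 and 4.80 at bud. Bud lay above all other libraries, while both shield libraries lay within the range of the earlier stages. Per 1000 serine counts alone, the egg libraries held 2.44 and 2.08 and the bud libraries 9.27 and 9.17. Per 1000 leucine counts they held 2.34 and 2.53 in eggs, and 11.9 and 10.1 at bud. In eggs there were thus 445 ± 51.1 serine tRNA counts for each selenocysteine tRNA count, and at bud 109 (means of 2, SD for the egg).

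With serine and leucine counts as the scale in place of all families, the rise at bud against egg was 2.10 ± 0.26 (SE, DESeq2 adjusted p = 7.57e-14). Against shield it was 1.74 ± 0.25, and against sphere 2.21 (SE, DESeq2 adjusted p = 9.04e-11 and 1.34e-16). The shield change against egg was 0.36 on this scale (DESeq2 adjusted p = 0.229). On this scale the median of all families shifted to -0.17 at bud and to -0.45 at shield against egg. For shield and bud together against the earlier stages, the ratio was 2.29-fold higher in a two-sided exact permutation test (p = 0.0202, also 0.0202 adjusted over the 2 tests by Benjamini-Hochberg). Here too, libraries of the same stage were taken as independent. The libraries overlapped, since shield replicate 1 at 1.40 was below 256-cell replicate 2 at 1.69. Without bud the shield difference was 0.32 on the log2 scale (exact permutation p = 0.222), so the ratio result rested on bud, and leaving out either bud library gave p = 0.0606.

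**Figure D4:**
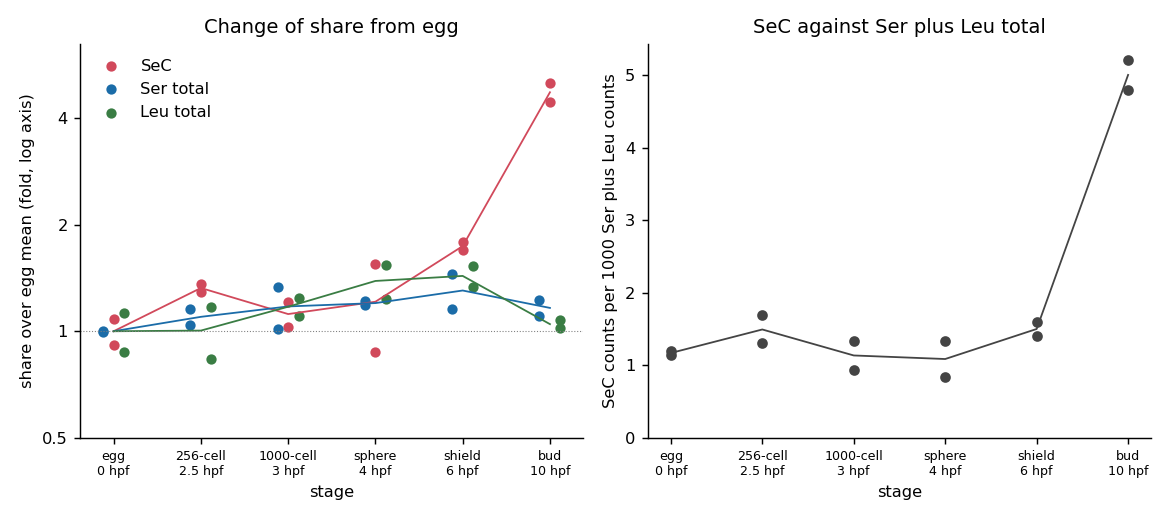
Left, share of nuclear counts relative to the egg mean on a log axis for selenocysteine tRNA and the serine and leucine sums, and right, selenocysteine tRNA counts per 1000 serine and leucine counts on an axis from 0, with points for the 12 libraries and lines through stage means. At bud selenocysteine tRNA reaches 4.75-fold of the egg mean on average and 5.22 and 4.80 counts per 1000, while the mean serine and leucine sums are highest at shield with overlap between libraries.

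Among the 9 serine and leucine families, 3 were called higher at bud than in eggs and 0 lower, beside the 21.3% of all families called higher. The serine families among them, Ser-UGA with 177 copies and Ser-CGA with 48, had changes of 1.11 and 1.07. The remaining one, Leu-AAG, had 0.55 ± 0.22 (SE, DESeq2 adjusted p = 0.0374), and it was not called by edgeR, with TMM factors or with total nuclear counts (adjusted p = 0.0917, 0.0598 and 0.0698). Leu-UAG, Ser-GCU, Ser-AGA, Leu-CAA, Leu-UAA and Leu-CAG had 0.42, 0.19, 0.14, 0.13, 0.09 and -0.19, which did not pass the threshold. All 9 changes were below that of selenocysteine tRNA.

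Shield gave another order. Leu-AAG at 0.96, Leu-UAG at 0.91, Ser-UGA at 0.77, Leu-CAA at 0.59 and Ser-AGA at 0.45 were called higher there than in eggs (DESeq2 adjusted p from 0.000647 to 0.0475). These 5 of 9 long-arm families were all 5 of the 47 families called higher, or 10.6%. By edgeR only Leu-AAG of these was called, with an adjusted p of 0.0301, and it was the only 1 of all 47 families called. Between shield and bud the only one of the 9 called was Ser-CGA, at 0.76 (DESeq2 adjusted p = 8.25e-05). Of all 47 families, 5 were called in that comparison, or 10.6%. Ser-CGA, which reads UCG serine codons, held 1365 and 1263 CPM in eggs and 2824 and 2416 at bud.

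Single transcripts put the rise in a wider range. Fitted over single transcripts, selenocysteine tRNA changed by 2.64 ± 0.31 at bud against egg (SE, DESeq2, adjusted p = 1.69e-16 over the 607 detected transcripts), and 24 of the 607 rose more. With total nuclear counts as the scale it changed by 2.26, and the median transcript moved from -0.0019 to -0.37. On the first scale 105 transcripts were called higher, or 17.3%, and 90 lower, 32.1% in either direction, and on the second 70 higher and 164 lower. Among 49 detected serine transcripts, 10 were higher and 3 lower, with a median of 0.24, and with total counts 5 and 7, with a median of -0.13. Among 55 leucine transcripts, 17 were higher and 0 lower, with a median of 0.33, and with total counts 12 and 4, with a median of -0.04. Larger changes than that of selenocysteine tRNA on the first scale were seen in 3 of the 49 serine and 3 of the 55 leucine transcripts. Over all detected transcripts this was 24 of 607, so the long-arm transcripts were not fewer than others. Bud against shield gave 1.88 ± 0.29 and ranked 20 of the 607 (SE, DESeq2 adjusted p = 2.95e-09, with 11.4% called and 10.9% called higher). Shield against egg gave 0.76 ± 0.31, which did not pass the threshold (SE, DESeq2 adjusted p = 0.0638, with 19.6% called and 10.2% called higher). It was called at 0.76 with the replicate number as a block (DESeq2 adjusted p = 0.0439). Without sphere replicate 1 or 2 it was 0.76 each and called, with 1 sphere library left. In 13 of 16 alternatives it stayed uncalled.

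The families whose pattern was most like that of selenocysteine tRNA were named by Pearson's r of log2 mean shares over the 6 stages. Ser-CGA had r = 0.996, Arg-UCG 0.946 and Thr-UGU 0.905, and these 3 of 46 families were the only ones over 0.9, with a median of -0.144. They moved less far, at 1.99-fold, 1.44-fold and 1.58-fold of the egg share at bud, against 4.75-fold. From egg to shield the mean of Ser-CGA went from 1314 to 1625 CPM, Arg-UCG from 9454 to 9940 and Thr-UGU from 7247 to 7201. Selenocysteine tRNA went from 86.2 to 150, so Arg-UCG and Thr-UGU were like it mainly in being high at bud. Among 606 other detected transcripts, 46 had r over 0.9, with a median of -0.577. The highest, each with r = 0.997, were tRNA-Ile-AAU-2 with 1 gene copy, tRNA-Val-AAC-1 with 5 and tRNA-Gln-UUG-6 with 2, whose bud shares were 6.93-fold, 4.64-fold and 8.19-fold of their egg shares. tRNA-Ile-AAU-2 held 83.4 and 104 CPM in eggs, 194 and 205 at shield, and 690 and 610 at bud. At shield and at bud both of its libraries lay above both libraries of selenocysteine tRNA. All r values describe 6 stage means of libraries that share their denominators.

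**Figure D5:**
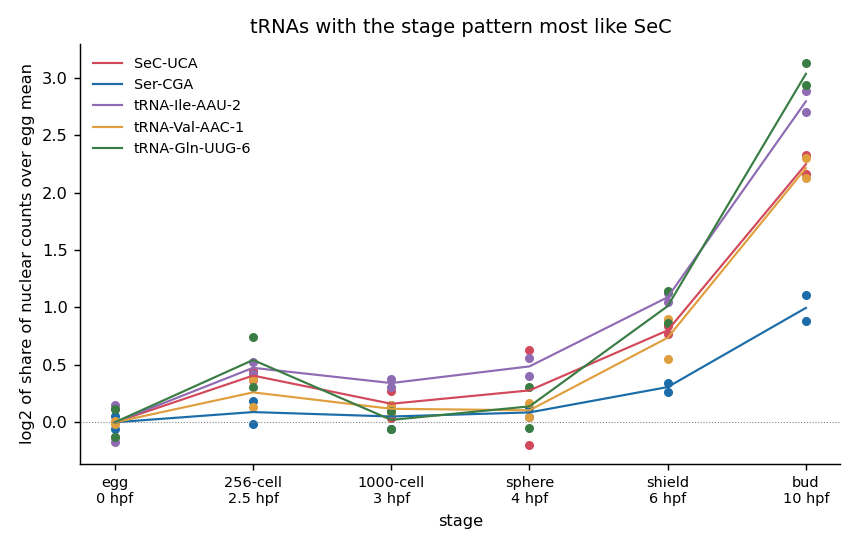
Log2 of the share of nuclear counts over the egg mean across the 6 stages, for selenocysteine tRNA, for Ser-CGA, the family with the highest Pearson's r to it, and for the 3 single transcripts with the highest r, with points for libraries and lines through stage means. At bud Ser-CGA reaches 1.99-fold of its egg share and the transcripts 4.64-fold to 8.19-fold, beside 4.75-fold for selenocysteine tRNA.

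Charging, the loading of tRNA with amino acids, was measured by the study at sphere and bud. The charging values analysed here cover 46 families, with 0 entries for selenocysteine tRNA, so its charging was not analysed here. The serine families, whose synthetase also loads selenocysteine tRNA, were charged to 81.7% to 92.0% at sphere (median 89.4%) and to 81.5% to 92.7% at bud (median 87.9%), over families and libraries.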

How the data were processed

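Small RNA was sequenced by mim-tRNAseq, with 2 libraries at each of 6 stages. The authors trimmed reads with cutadapt 3.5 and aligned them with GSNAP in mim-tRNAseq v1.2 to a GRCz11 tRNA reference. Their deposited table holds raw unique read counts per transcript, and their charging table holds the charged fraction per family. The authors' other column is the gene copy number per entry. All columns of per-sample values were mapped to a label, and 0 were left unmapped.

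The members and the lists were chosen with earlier results of these data known. Named were all selenocysteine, serine and leucine families, the 2 families next in rank at bud, and the 3 families and 3 transcripts with the highest Pearson's r. Counts were summed into 47 families and tested with DESeq2 1.42.0 on stage, with all 12 libraries and median-of-ratios size factors. Transcripts were tested when they reached 0.005% of nuclear counts in 1 library. Families with a copy number were 46, because 1 cell held no number. Alternatives were edgeR, other scalings, count filters, a replicate block and leaving out each library. Wilson intervals cover counting error only. The counts carry no molecular identifiers, so PCR copies count as separate reads and the intervals can be too narrow. No sequence of selenocysteine tRNA was read from the files used here.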

Additional observations from a re-analysis of the deposited data

How the results depend on the processing

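Of 334 alternatives over 18 results, 314 kept their direction and side of the threshold, 10 crossed it upwards, 5 crossed it downwards and 5 reversed. The filter for at least 10 counts in 2 libraries kept all 47 families, so it repeated the main fit and could not differ. It is counted among these and among the 22 alternatives of each family result. Selenocysteine tRNA at bud against egg ran from 2.10 to 2.45 and was called in all 22 alternatives, and bud against sphere ran from 1.68 to 2.54. With serine and leucine counts as size factors, 1000-cell against egg was -0.034 and sphere against egg was -0.11. Shield against egg was called with counts summed by isotype (0.84, adjusted p = 0.0247). Leaving out 1 library at a time, the family changes ran from 0.30 to 0.54 for 256-cell, from -0.19 to 0.68 for sphere and from 0.68 to 0.94 for shield, each against egg. They ran from 0.17 to 1.04 for shield against sphere and from 1.44 to 1.61 for bud against shield. Transcript changes against egg ran from -0.085 to 0.28 for 1000-cell, from -0.16 to 0.61 for sphere and from 0.67 to 0.82 for shield. The ratio to serine and leucine ran from 0.89 to 1.52, and was 0.32 with bud left out. The SE of shield against egg fell from 0.40 to 0.13 without either sphere library, and was 0.46 with only the egg and shield libraries. Otherwise the cause was not tested. The replicates of a stage were collected on different days, but no source used here says that a number marks the same day at every stage. Deviations of same-numbered libraries correlated from -0.22 to 0.88 over 15 pairs of stages, with 8 over 0.1, so the pairing was not established. With a replicate block, bud against egg was 2.33 (adjusted p = 6.98e-09), shield against egg was 0.81 (adjusted p = 0.0879) and the transcript change at shield was 0.76 and called (adjusted p = 0.0439). Families called at bud against egg were then 10 higher and 8 lower. Alternatives for charging were not run, because no selenocysteine value was analysed. Egg replicate 1 has the fewest selenocysteine tRNA counts, 74, and 1000-cell replicate 1 the next fewest, 132.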
